A study of Mus musculus with 4 samples.

Results

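The genes described here are 8 targets of SREBP2 in the mouse, 7 enzymes that build cholesterol (Hmgcs1, Idi1, Fdps, Fdft1, Sqle, Lss and Cyp51) and the sterol sensor Insig1. They were taken by symbol from a table of 15575 genes, and all 8 were among the 14181 genes tested. None of the 8 is a receptor or transporter, so genes of cholesterol uptake were read from a separate list. The RNA came from adherent peritoneal macrophages of male C57BL/6 mice, aged 8 to 12 weeks in the study's methods, that received BSA (bovine serum albumin) or AGEs, here BSA modified with DHA (dehydroascorbic acid), a reactive oxidation product of vitamin C. Both proteins were injected intravenously at 10 mg/kg/day, beginning 24 h ahead of an intraperitoneal injection of thioglycollate (TG), which recruits monocytes and macrophages to the peritoneum, and ending at sacrifice. Cells were harvested 72 h after TG and selected by adherence to plastic. There were 2 libraries of each group, described as biological duplicates. The sources used here do not state whether a library holds 1 mouse or several, so the p-values measure the spread between these libraries only.

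Cells make cholesterol from acetyl-CoA through mevalonate, isoprenoid diphosphates, squalene and lanosterol. The transcription factor SREBP2 switches on nearly every enzyme of this route together with genes of lipoprotein uptake. When membrane sterol is low, the escort protein SCAP carries SREBP2 to the Golgi, where it is cleaved and freed to enter the nucleus, and when sterol is high, INSIG proteins hold SCAP in the endoplasmic reticulum. Because of this feedback the mRNAs of the pathway usually move as a block, and macrophages, which take up lipid from their surroundings, are a cell type in which they are often read as a gauge of sterol supply. The comparison of AGEs with BSA therefore asks whether exposure of the mice to AGEs moved this block in the recruited macrophages.

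SREBP2 binds sterol regulatory elements in promoters, usually beside sites for the factors NF-Y and Sp1, so the promoters of the genes are shown first. RefSeq promoters (GRCm38.p6, from 250 bases before to 50 bases after the start of the gene) were matched for 5 of the 8 genes, Hmgcs1, Idi1, Lss, Cyp51 and Insig1. Sqle, Fdft1 and Fdps are named only. The letters CACNCCAC, a sterol regulatory element core, were searched on both strands and occur in the promoters of Hmgcs1 and Insig1, 2 of the 5, against 6.24% of 32851 mouse promoters. The NF-Y box CCAAT occurs in 5 of 5, against 37.4% of all promoters, and the GC box GGGCGG, the core of an Sp1 site, also in 5 of 5, against 35.7%. In these 5 promoters 0 matches of 1 pattern overlapped a match of another, and a match is a description of the sequence and not a measured binding site. The stretches below run 5′ to 3′ on the strand of the gene and end no later than the last base before the start that the promoter table uses, with the core in capitals for Hmgcs1 and Insig1 and the NF-Y box nearest the start in capitals for the others.
Hmgcs1 (chr13:119690185-119690252, plus strand): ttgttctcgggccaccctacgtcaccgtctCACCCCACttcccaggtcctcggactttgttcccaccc
Insig1 (chr5:28071373-28071411, plus strand): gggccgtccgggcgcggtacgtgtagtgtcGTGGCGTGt
Idi1 (chr13:8885562-8885605, plus strand): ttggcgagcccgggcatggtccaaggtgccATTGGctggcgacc
Lss (chr10:76531513-76531577, plus strand): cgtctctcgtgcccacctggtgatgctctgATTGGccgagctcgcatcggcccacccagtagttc
Cyp51 (chr5:4104698-4104756, minus strand): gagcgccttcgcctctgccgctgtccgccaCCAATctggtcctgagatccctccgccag
The core of Hmgcs1 lies 136 to 129 bases before the start. That of Insig1 lies 9 to 2 bases before the start and reads on the opposite strand, as do the NF-Y boxes shown for Idi1 and Lss. For Lss the start in the promoter table lies 40 bases inside the gene's annotated span, so the last 13 bases shown fall within it. Among the 5 genes with a promoter shown, the 2 that carry the core had the highest levels per length, given next. A link between the core and the level was not tested.

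Across the table the libraries held 17773088 and 22146761 counts with BSA and 23079245 and 24472926 with AGEs. BSA replicate 1 stood apart, with a score of -34.6 on the leading principal component where the other 3 libraries scored 5.08 to 16.9. All 8 macrophage markers on a list of cell type genes were present, with a summed level of 13891 to 17628 CPM (counts scaled to a common library size with edgeR's TMM factors). The 6 T and NK cell markers had no row in the table, 1 of 8 neutrophil markers had one (S100a8, 1.09 to 2.06 CPM), and the 5 B cell markers summed to 61.3 to 95.7 CPM. The dendritic cell markers, of which 4 of 5 had a row and Xcr1 had none, summed to 15.8 and 13.1 CPM with BSA and 6.86 and 10.1 CPM with AGEs. The remaining lists, of resident macrophages, monocytes, eosinophils, mast cells with basophils, and mesothelial cells with fibroblasts, summed to 331 to 497, 301 to 352, 4.70 to 7.21, 3.48 to 7.82 and 41.6 to 85.6 CPM. The part of other cell types in the results below was not tested.

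All 8 genes were detected in every library, with 264 to 2861 counts per gene and library. In TPM, the authors' unit per transcript length, the order in each library was Insig1, Hmgcs1, Fdps and Cyp51, then Sqle and Fdft1 in changing order, then Idi1 and Lss. Insig1 stood at 57.6 to 70.1 TPM, Hmgcs1 at 30.8 to 39.2 TPM, Fdps at 25.0 to 28.8 TPM and Cyp51 at 12.6 to 16.9 TPM, and these ranges over 4 libraries did not overlap. The lower ranks were closer, and TPM also depends on the abundant 7SL RNAs, which took 38.0% to 46.2% of it. Sqle at 7.44 to 10.7 TPM overlapped Fdft1 at 8.86 to 10.1 TPM and Idi1 at 5.97 to 8.30 TPM, and Lss was the lowest at 4.40 to 5.65 TPM, below every library's value of Idi1.

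No change of these genes with AGEs was detectable. With edgeR's quasi-likelihood test 0 of the 8 passed the study's threshold, a change over 1.5-fold at an unadjusted p under 0.05, in either direction, where 1.77% of all genes tested passed it, 0.825% higher and 0.945% lower with AGEs. At an unadjusted p under 0.05 without a fold limit the count was also 0 of 8, against 5.64% of all genes. DESeq2 and limma-voom gave 0 of 8 by both rules. The fitted change was above 0 for 3 genes (Fdft1, Lss and Insig1) and below 0 for 5 (Hmgcs1, Idi1, Fdps, Sqle and Cyp51), and their median was -0.04 on the log2 scale beside 0.00 for all genes. The median size of the change without its sign was 0.07, against 0.14 for all genes. All genes include many of fewer counts, and the 2 medians were not matched for level. In none of the 8 were the groups separate, whereas the groups did not overlap in 35.3% of all genes. The adjusted p-values were 0.902 to 0.985, and an exact permutation test of 1 gene with 2 libraries against 2 cannot go below p = 0.333. The RNA was from whole cell preparations, so fewer cells of a type and less RNA per cell cannot be told apart.

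The first enzymes of the group work before squalene. Hmgcs1 (chr13:119690351-119708260) makes HMG-CoA, the precursor of mevalonate. Its level was 85.4 and 82.9 CPM with BSA and 86.8 and 76.4 CPM with AGEs. The AGEs libraries held both the highest and the lowest value, with both BSA libraries between them. The log2 fold change was -0.04 ± 0.10 (SE, adjusted p = 0.972), with a 95% interval of 0.837- to 1.12-fold.

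Idi1 (chr13:8885606-8892396) interconverts the isopentenyl and dimethylallyl diphosphates, the 5-carbon units from which all isoprenoids are assembled. It stood at 14.6 and 12.5 CPM with BSA and at 13.8 and 12.02 CPM with AGEs. In both groups replicate 1 was the higher library, and the gap between duplicates was larger than the difference between the groups. The log2 fold change was -0.06 ± 0.19 (SE, adjusted p = 0.980, 95% interval 0.725- to 1.26-fold).

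Fdps (chr3:89093588-89101967) joins these units into farnesyl diphosphate, the branch point towards sterols, dolichol, ubiquinone and prenylated proteins. The values were 22.6 and 25.2 CPM with BSA and 23.5 and 22.2 CPM with AGEs. AGEs replicate 2 was the lowest library and BSA replicate 2 the highest, with the other two between them. The log2 fold change was -0.07 ± 0.14 (SE, adjusted p = 0.970, 95% interval 0.773- to 1.18-fold).

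Fdft1 (chr14:63145150-63181687), squalene synthase, commits farnesyl diphosphate to sterols. Its level was 23.9 and 27.0 CPM with BSA and 25.7 and 28.4 CPM with AGEs. The libraries alternated between the groups in rank, with a log2 fold change of 0.09 ± 0.14 (SE, adjusted p = 0.950, 95% interval 0.868- to 1.3-fold). Its last 774 bases overlap Ctsb, the gene of the lysosomal protease cathepsin B, on the opposite strand. Ctsb, named here after its values were seen, stood at 8818 to 9682 CPM, and whether reads were counted by strand is not stated, so the level of Fdft1 is uncertain to that extent.

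Sqle (chr15:59315092-59331193), squalene epoxidase, catalyses a rate-limiting step of the pathway and requires oxygen. It was the most uneven gene of the 8 within a group. The values were 18.1 and 16.7 CPM with BSA and 19.5 and 14.3 CPM with AGEs. The AGEs duplicates lay on either side of both BSA libraries, 0.44 apart on the log2 scale, and the fitted log2 fold change was -0.04 ± 0.18 (SE, adjusted p = 0.985, 95% interval 0.741- to 1.27-fold). It was -0.28 without AGEs replicate 1, 0.16 without AGEs replicate 2 and 0.01 without BSA replicate 1, so its sign depended on which library was left out.

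Lss (chr10:76531565-76557139), lanosterol synthase, closes the epoxide into the first sterol ring system. It had the largest fitted change of the 8. The values were 17.0 and 19.5 CPM with BSA and 19.2 and 24.5 CPM with AGEs. AGEs replicate 2 was the highest library and AGEs replicate 1 lay just below BSA replicate 2. The log2 fold change was 0.26 ± 0.17 (SE, adjusted p = 0.902), with a 95% interval of 0.932- to 1.53-fold. Without AGEs replicate 2 it was 0.07, and without AGEs replicate 1 it was 0.42, where the unadjusted p fell just under 0.05 and the change stayed under the fold limit. Lss shares 11269 bases with 4930483K19Rik, a long noncoding RNA on the opposite strand, so its counts carry the same doubt about strand.

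Cyp51 (chr5:4080674-4104697), lanosterol 14-alpha-demethylase, removes the first methyl group from lanosterol. It stood at 45.1 and 41.3 CPM with BSA and at 38.3 and 41.6 CPM with AGEs. AGEs replicate 1 was the lowest and BSA replicate 1 the highest, with the other two libraries nearly level. The log2 fold change was -0.11 ± 0.11 (SE, adjusted p = 0.928, 95% interval 0.782- to 1.09-fold).

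Insig1 (chr5:28071412-28078662) retains SCAP in the endoplasmic reticulum and is itself induced by SREBP2, which makes it part of the feedback. It was the most abundant of the 8, at 114 and 107 CPM with BSA and at 111 and 118 CPM with AGEs. The AGEs values enclosed BSA replicate 1 and not BSA replicate 2, and the log2 fold change was 0.05 ± 0.09 (SE, adjusted p = 0.958, 95% interval 0.906- to 1.18-fold). This was the narrowest interval of the 8. RefSeq places Insig1 within the long noncoding RNA Gm35223, which shares all 7251 bases of it, so its level is uncertain as well.

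**Figure D1:**
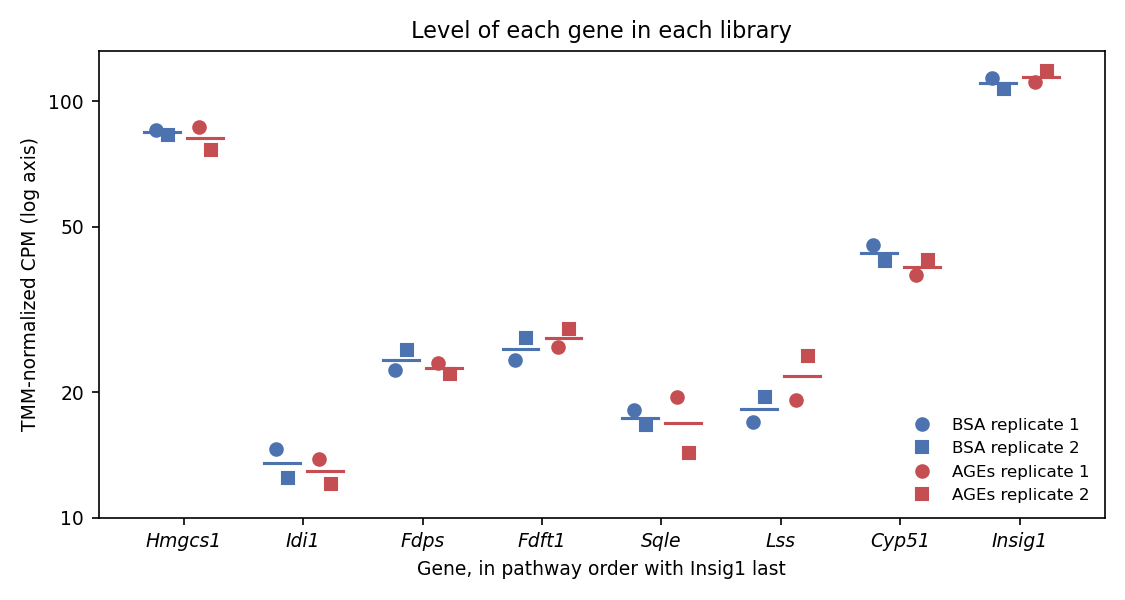
Level of each of the 8 genes in TMM-normalized CPM on a log axis, with 1 point per library (circles, replicate 1; squares, replicate 2) for BSA in blue and AGEs in red, and a line at each group's mean. The 2 colours overlap in every gene, from Idi1 at 12.02 to 14.6 CPM to Insig1 at 107 to 118 CPM.

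The summed level of the 8 genes was 341 and 332 CPM with BSA and 338 and 337 CPM with AGEs. Both AGEs libraries lay between the BSA duplicates. For the 7 enzymes alone the sum was 227 and 225 CPM with BSA and 227 and 219 CPM with AGEs. Insig1 and Hmgcs1 made up the largest parts of the sum of the 8 genes. Opposite differences of single genes can cancel in either sum. For each of the 8 genes the larger of the 2 differences between duplicates exceeded the fitted difference between the groups. With 2 libraries against 2 this nearly follows from the overlap of the groups, so it is no separate result. The intervals give what these libraries could have shown. In 7 of the 8 the 95% interval lay within 1.5-fold either way, and the exception was Lss, whose upper bound was 1.53-fold. Such an interval was reached by 53.6% of all genes tested, and it depends on the number of counts.

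The genes did not share 1 pattern over the libraries. Hmgcs1, Idi1 and Sqle were higher in replicate 1 than in replicate 2 of both groups, by 0.04, 0.23 and 0.12 on the log2 scale with BSA and by 0.18, 0.20 and 0.44 with AGEs, and all 3 were lowest in AGEs replicate 2. Fdft1 and Lss did the reverse, with replicate 2 above replicate 1 by 0.18 and 0.19 with BSA and by 0.14 and 0.35 with AGEs, and both were lowest in BSA replicate 1 and highest in AGEs replicate 2. Fdps, Cyp51 and Insig1 differed in direction between the duplicates of the 2 groups. The replicate numbers were not found to pair the samples across the table. The GC content of the longest transcript was 41.9% for Idi1, 43.1% for Hmgcs1 and 48.6% for Sqle, and 48.7% for Lss and 51.8% for Fdft1. It was 50.6% for Fdps, 46.2% for Cyp51 and 48.2% for Insig1. The part of GC content in these patterns was not tested. A correction for GC content was read only for the fold change between the groups, which does not describe these patterns. Under it Hmgcs1 and Idi1 moved from -0.04 and -0.06 to 0.01 and 0.00. Sqle moved from -0.04 to -0.03, Fdft1 from 0.09 to 0.06 and Lss from 0.26 to 0.27.

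**Figure D2:**
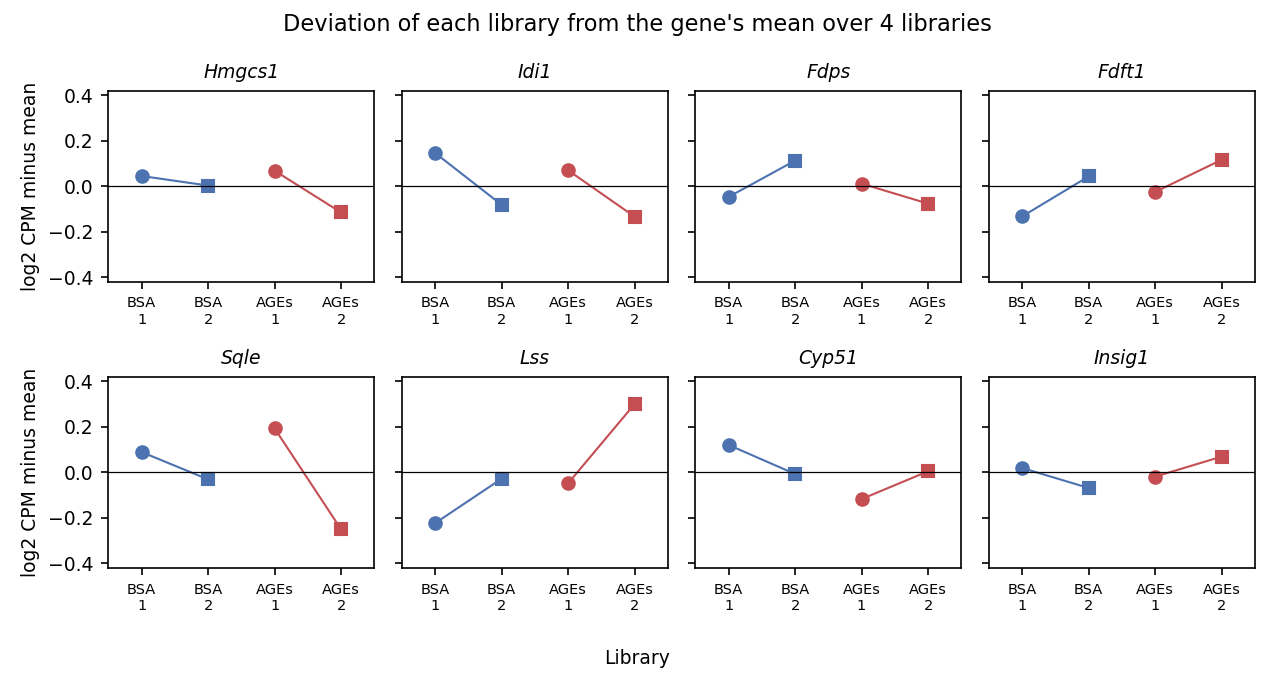
Log2 CPM of each gene in each library minus the gene's mean over the 4 libraries, 1 panel per gene, with a line joining the duplicates of a group (blue, BSA; red, AGEs). Replicate 1 lies above replicate 2 in both groups for Hmgcs1, Idi1 and Sqle and below it for Fdft1 and Lss, by up to 0.35 for Lss with AGEs.

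The other enzymes of the route were less even than the 8 genes. Of 14 listed and tested, 1 rose past the threshold, where 0.825% of all genes tested did, 0 fell and 13 did not pass. The 95% interval lay within 1.5-fold either way in 6 of the 14, against 7 of the 8 genes and 53.6% of all genes, and it depends on the number of counts. The median change of the 14 was 0.04 on the log2 scale, and 8 values were above 0. The gene that rose was Mvk, mevalonate kinase, which phosphorylates mevalonate 3 steps before Idi1 acts. It stood at 5.14 and 7.12 CPM with BSA and at 9.91 and 9.10 CPM with AGEs. The groups did not overlap, and the log2 fold change was 0.63 ± 0.24 (SE, adjusted p = 0.848). The call did not hold without BSA replicate 1 (0.41) or without AGEs replicate 1 (0.57), where the unadjusted p was over 0.05. With the correction for GC content the change was 0.53 and thus under the fold limit.

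Msmo1, the methylsterol monooxygenase that follows Cyp51, was 73.6 and 65.8 CPM with BSA and 68.3 and 69.3 CPM with AGEs, with overlapping groups. Groups that did not overlap were seen for 4 of the 14 (Mvk, Acat2, Pmvk and Dhcr7), 28.6% against 35.3% of all genes, so this share is no result about the list. Acat2, which condenses acetyl-CoA at the entry of the route, was 8.12 and 6.84 CPM with BSA and 5.33 and 5.60 CPM with AGEs (log2 fold change -0.45 ± 0.24, adjusted p = 0.898). Pmvk, phosphomevalonate kinase, had a value of 0.37 ± 0.27 (adjusted p = 0.911), and Dhcr7, which makes the final reduction to cholesterol, one of 0.31 ± 0.18 (adjusted p = 0.902). These 4 had 70 to 367 counts per library. Mvd, Tm7sf2, Lbr, Nsdhl, Hsd17b7, Ebp and Sc5d had fitted values from -0.08 (Mvd) to 0.42 (Tm7sf2, 28 to 76 counts per library).

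**Figure D3:**
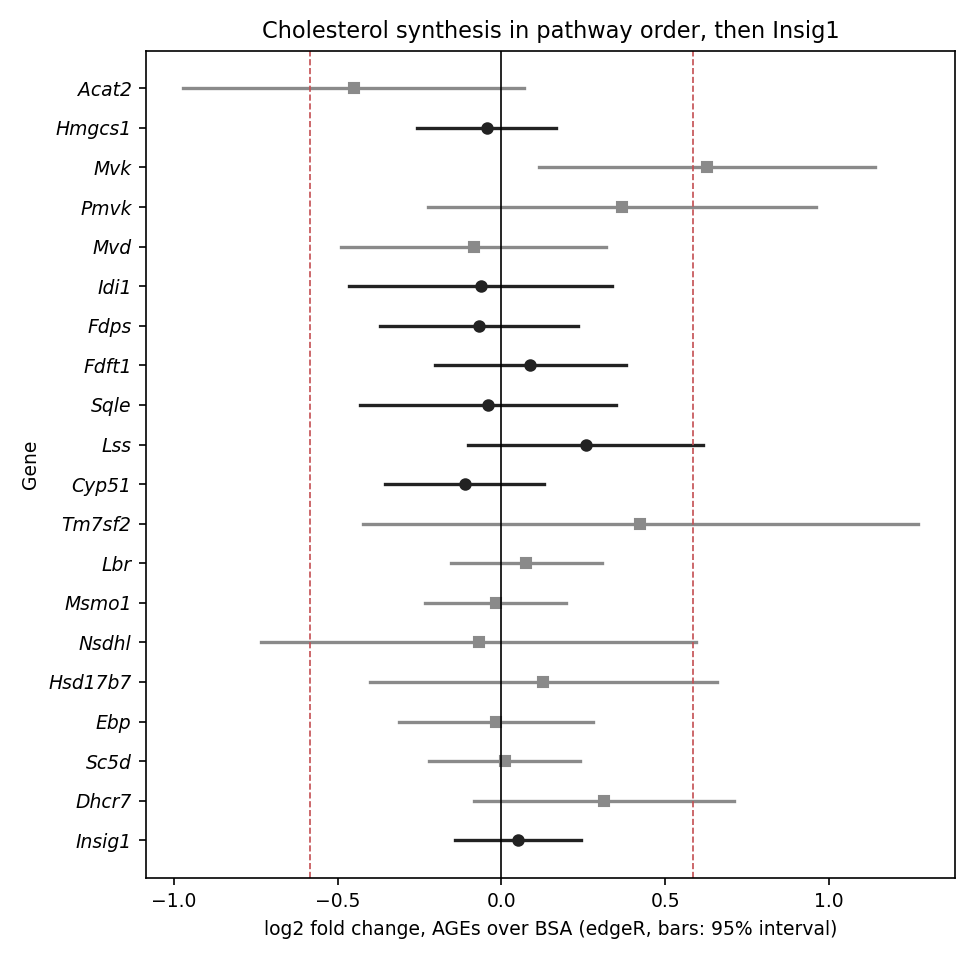
Log2 fold change of AGEs over BSA with 95% intervals for 19 enzymes of cholesterol synthesis in pathway order and for Insig1, with the 8 SREBP2 target genes as black circles and the other enzymes as grey squares. Dashed lines mark 1.5-fold either way. Every black interval crosses 0, and of the grey ones that of Mvk does not.

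The neighbouring branches and the INSIG-dependent degradation of proteins gave no call. Of the 6 genes that take farnesyl diphosphate from Fdps into geranylgeranyl diphosphate, dolichol or ubiquinone, 0 passed by edgeR and 0 had an unadjusted p under 0.05. The smallest p-values among them belonged to Ggps1 (-0.18 ± 0.13, adjusted p = 0.911), Dhdds (-0.13 ± 0.14, adjusted p = 0.930) and Pdss1 (0.19 ± 0.28, adjusted p = 0.950). Of the 7 genes for this degradation, likewise 0 passed and 0 had a p under 0.05, with Faf2 (-0.10 ± 0.10, adjusted p = 0.930), Erlin2 (-0.08 ± 0.10, adjusted p = 0.941) and Erlin1 (0.07 ± 0.12, adjusted p = 0.955) the nearest.

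The machinery that controls the 8 genes was measured at similar depth. Of its 6 genes outside the group, 0 passed the threshold and 1 had an unadjusted p under 0.05 by edgeR, against 5.64% of all genes. The groups did not overlap in 5 of the 6, 83.3% against 35.3% of all genes. Fitted values were above 0 for 4 of the 6 and below 0 for 2, and the list was not tested as a set. Srebf2, which encodes SREBP2 itself, was 72.5 and 80.5 CPM with BSA and 85.0 and 82.2 CPM with AGEs. The AGEs libraries were both higher, and the log2 fold change of 0.13 ± 0.10 (SE, adjusted p = 0.915) had a 95% interval of 0.944- to 1.26-fold. Srebf1 encodes SREBP1, the paralogue that favours genes of fatty acid synthesis. It was 80.2 and 79.7 CPM with BSA and 102 and 96.9 CPM with AGEs. The groups were separate, with a log2 fold change of 0.31 ± 0.09 (SE, adjusted p = 0.785), under the fold limit. The unadjusted p was under 0.05, but with the GC correction the value was 0.17 and the unadjusted p over 0.05. Mbtps1, the Golgi protease that makes the first cut in SREBPs, was 86.0 and 93.2 CPM with BSA and 96.2 and 102 CPM with AGEs, a value of 0.14 ± 0.09 (adjusted p = 0.902).

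Cholesterol uptake and transport gave the same count as the 8 genes. Of 10 genes listed, 9 had a row in the table and were tested, and 0 passed the threshold or an unadjusted p under 0.05 by edgeR. Scarb1, the receptor for high-density lipoprotein, had a value of 0.10 ± 0.12 (adjusted p = 0.938).

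**Figure D4:**
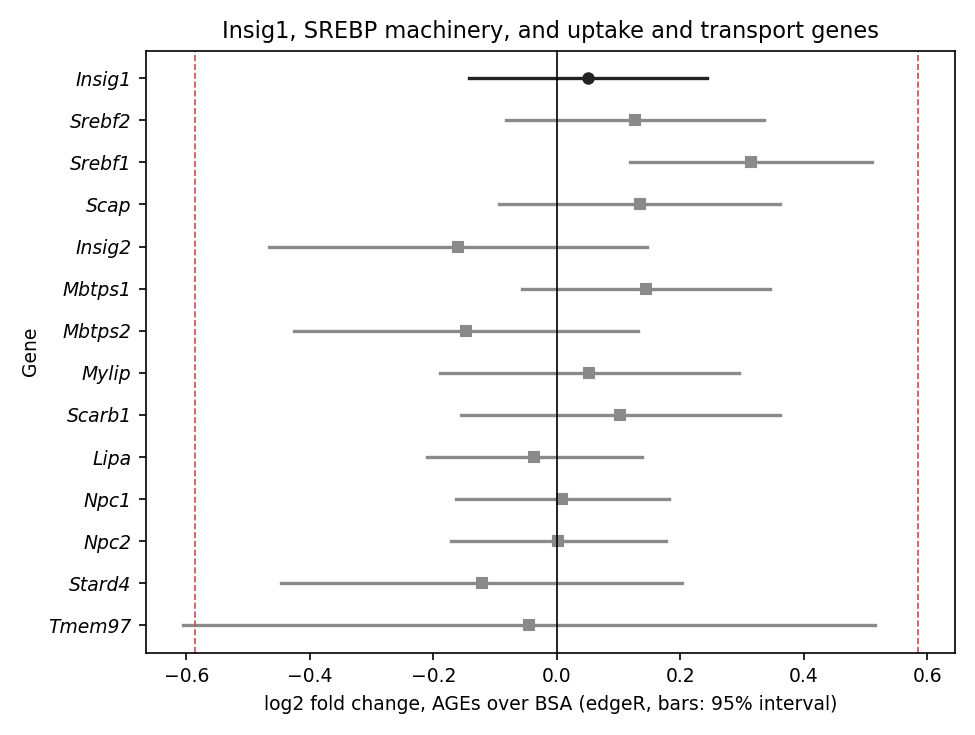
Log2 fold change of AGEs over BSA with 95% intervals for Insig1 (black circle), the other 6 genes of SREBP control and 7 genes of uptake and transport (grey squares), with dashed lines at 1.5-fold either way. No point reaches a dashed line, and the interval of Srebf1 is the one that does not cross 0.

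The fits other than the one above gave no call among the 8 genes, though they shifted some values by more than the fitted change itself. Over 16 alternative fits each gene stayed within the fold limit, the unadjusted p of Lss without AGEs replicate 1 was the one p under 0.05, and 0 of the 8 passed the threshold in any fit. Cyp51 stayed below 0 and Fdft1 and Lss above 0 in all 16, while Hmgcs1, Idi1, Fdps, Sqle and Insig1 changed sign in at least 1. Without BSA replicate 1, the library that stood apart, the fitted values were -0.03 for Hmgcs1, 0.05 for Idi1, -0.15 for Fdps, 0.00 for Fdft1, 0.01 for Sqle, 0.16 for Lss, -0.05 for Cyp51 and 0.09 for Insig1.

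**Figure D5:**
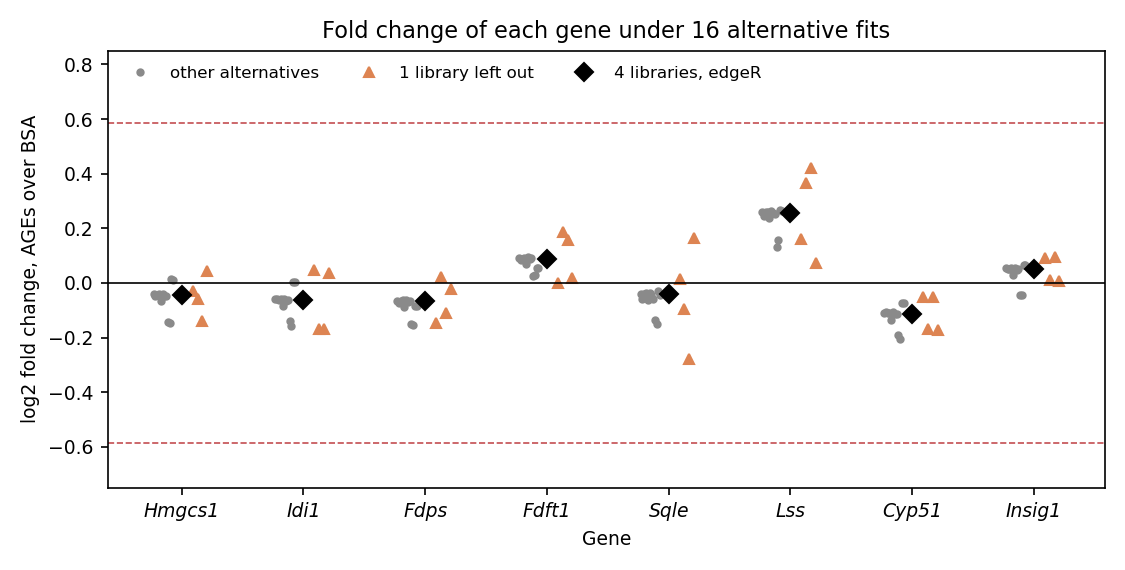
Log2 fold change of AGEs over BSA of each of the 8 genes with all 4 libraries (black diamonds), with 1 library left out (orange triangles) and under the other alternative fits (grey points), with dashed lines at 1.5-fold either way. The triangles of Sqle span -0.28 to 0.16 and those of Lss 0.07 to 0.42, and no point reaches a dashed line.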

How the data were processed

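The authors depleted ribosomal RNA, prepared stranded libraries, sequenced 100 bp paired ends, used HISAT2 2.1.0 against mm10, and derived TPM and FPKM in StringTie 2.1.3b. Read counts were deposited for each gene, with no statement of how reads were counted. The TPM deposited by the authors served for levels between genes and for 2 alternatives. The FPKM and log2 normalized values (8 columns), the log2 group means and the authors' DESeq2 comparison (fold change, mean, standard error, statistic, p and adjusted p) were not used.

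The test was that of edgeR 4.0.16 under R 4.3.3 (TMM, filterByExpr, robust glmQLFit, glmQLFTest, no block), and p-values were adjusted after Benjamini-Hochberg over the 14181 genes kept. SEs follow from the fold change and its F statistic. In simulated counts 200 genes were changed, 100 of them by 2-fold, and 99 of these 100 were recovered among 14181. That figure does not show what the test recovers at smaller changes, such as those near the 1.5-fold limit, or in genes of few counts. Alternatives were DESeq2 1.42.0, limma-voom (limma 3.58.1), RLE, upper quartile and library size scaling, no filter on counts, a filter of 50 counts in 2 libraries, leaving out each library, a replicate block, limma on log2(TPM + 1) and log2(TPM + 0.1), a loess correction (span 0.5) for transcript GC content (13159 genes) alone and with the block, and other thresholds (2-fold, adjusted p, p alone). The p-values of a fit without 1 library assume that the lone library varies like the others. At 17773088 to 24472926 counts a library, the biological coefficient of variation was 12.9%. The genes and lists were chosen with earlier results of these data known. Named were the 8 genes, list genes past the threshold and the 3 others of smallest p per list. Other enzymes of synthesis were also named, as were the 5 genes outside the lists nearest to the mean pattern of the 8. Some genes of the lists are counted but not reported here by name. Coordinates and promoters are from RefSeq (GRCm38.p6), where 15534 gene IDs matched.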

Additional observations from a re-analysis of the deposited data

How the results depend on the processing

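The count of the 8 genes past the threshold was 0 in each direction under all 19 alternatives, and so was the count of uptake and transport genes. The median log2 fold change of the 8 genes, -0.043, ranged from -0.081 to 0.026 with 1 library left out, and it was -0.138 and -0.148 on log2(TPM + 1) and log2(TPM + 0.1), where the median of all genes was -0.073 and -0.088. It was 0.0091 with the GC correction and 0.0068 with the GC correction and the replicate block. Mvk was the 1 other enzyme of synthesis past the threshold. That count ranged from 0 to 1 with 1 library left out and was 0 on both TPM scales, with the GC correction, with that correction and the replicate block, over 2-fold and at an adjusted p under 0.05. Of single genes, Hmgcs1 ranged from -0.138 to 0.045, Idi1 from -0.169 to 0.049, Fdps from -0.148 to 0.020 and Sqle from -0.278 to 0.164 with 1 library left out. With the GC correction Hmgcs1 was 0.014 and Idi1 0.0044, and with the block added 0.011 and 0.0027. Insig1 was -0.042 on log2(TPM + 1) and -0.043 on log2(TPM + 0.1). The cause was not tested. The differences between duplicates of the 2 groups correlated at 0.028 over all genes tested and at 0.069 over those with a log2 CPM above 3. This gave no sign of pairing, but a low correlation cannot settle whether libraries of the same number were handled together. With the replicate block the median of the 8 genes was -0.052, their count past the threshold 0, and the count over all genes 264 against 251. Over all genes it was 150 with DESeq2, 127 with at least 50 counts in 2 libraries, 385 on log2(TPM + 0.1) and 543 without BSA replicate 2. Changes of 1.5-fold or less cannot be shown for genes of few counts such as Tm7sf2, whose 95% interval was 0.746- to 2.41-fold.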

Other observations

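Fatty acid synthesis, which SREBP1 favours, was measured by 11 genes, with a median log2 fold change of 0.04. Past the threshold 0 rose and 1 fell, against 0.825% and 0.945% of all genes tested. The gene that fell was Fads2, a desaturase of polyunsaturated fatty acids, at 21 and 24 counts with BSA and 13 and 6 counts with AGEs (1.16 and 1.09 against 0.568 and 0.247 CPM, log2 fold change -1.46 ± 0.59, SE, adjusted p = 0.860 by edgeR). It did not pass without BSA replicate 1 (-1.42), without BSA replicate 2 (-1.50) or without AGEs replicate 2 (-0.98), nor with DESeq2 (-1.47), where the unadjusted p was over 0.05, nor on log2(TPM + 1), where the change was -0.40. Fads1, the desaturase that acts after Fads2, was 34.4 and 26.2 CPM with BSA and 22.6 and 22.6 CPM with AGEs (-0.42 ± 0.15, adjusted p = 0.848), under the fold limit. Me1, which supplies NADPH, was 1.05 and 0.499 CPM with BSA and 1.27 and 1.98 CPM with AGEs (1.08 ± 0.54, adjusted p = 0.893), and Mid1ip1, a regulator of acetyl-CoA carboxylase, had a value of 0.20 ± 0.10 (adjusted p = 0.893). Of the 9 genes of LXR signalling, efflux and storage, 0 passed and 2 had an unadjusted p under 0.05 by edgeR, against 5.64% of all genes. The groups did not overlap in 5 of the 9, 55.6% against 35.3% of all genes, with fitted values above 0 for 5 and below 0 for 4. Nr1h3, the sterol-activated receptor LXR-alpha, was 41.2 and 38.0 CPM with BSA and 51.7 and 50.3 CPM with AGEs (0.37 ± 0.11, adjusted p = 0.785), and the exporter Abcg1 was 251 and 286 CPM with BSA and 317 and 298 CPM with AGEs (0.20 ± 0.09, adjusted p = 0.879). With the GC correction Nr1h3 was 0.25. On log2(TPM + 1) it was 0.26, with an unadjusted p over 0.05 by limma. Apoe, the apolipoprotein secreted by macrophages, had a value of 0.24 ± 0.12 (adjusted p = 0.891) and its groups overlapped.

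Opposite differences of single genes between duplicates cancel in part in the mean of the 8 genes. This mean pattern over the 4 libraries was nearly flat, from -0.01 to 0.02 on the centred log2 scale. Genes near it are flat too and need not resemble any of the 8. Of 8807 genes outside the lists with a mean log2 CPM of at least 3, the 5 nearest to it in Euclidean distance of centred log2 CPM were Rpl17, Atp11a, Lamtor1, Ice1 and Oaz1, at 0.0074 to 0.015, with fitted log2 fold changes from -0.01 to 0.01.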
